A study of Homo sapiens with 6 samples.

Results

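The human mitochondrial genome carries its own small set of genes, and the RNAs made from them were followed here in HepaRG cells with and without a load of fatty acids. The members were all gene rows that the deposited table places on the mitochondrial chromosome, 37 of 58037 rows in all: 13 protein-coding genes, 2 rRNA genes and 22 tRNA genes. The strand column places 28 of them on the plus strand (12 mRNAs, 2 rRNAs and 14 tRNAs) and 9 on the minus strand (MT-ND6 and 8 tRNAs). HepaRG is a human liver cell line, labelled as hepatocellular carcinoma cells, that differentiates in culture into hepatocyte-like and biliary-like cells. All 6 libraries came from cells of passages 15 to 18, grown for 14 days, differentiated for 14 days and then kept for 5 days in basal Williams E medium with Glutamax-I, penicillin, streptomycin, bovine insulin and hydrocortisone hemisuccinate. The 3 control samples received medium with 0.02% bovine serum albumin for 72 h. The 3 fatty acid samples received palmitate and oleate (1 part to 2 parts, 0.5 mM), conjugated to 0.02% albumin, for the same 72 h. The labels do not say whether replicates were separate cultures, and p-values therefore cover no more than the spread of these samples, possibly a technical one. The purpose named by the series is the regulation of drug metabolism genes in lipid-loaded liver cells.

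Mitochondrial DNA is a circle whose strands differ in base composition, a heavy strand rich in G and a light strand rich in C. Each strand is copied by the mitochondrial RNA polymerase into a long RNA that spans many genes, and the tRNAs between the genes are cut out to release the mRNAs and rRNAs. The genes on the plus strand of the reference are copied from the heavy strand and are called heavy-strand genes, and the few on the minus strand are light-strand genes. The 13 proteins are all subunits of the oxidative phosphorylation complexes, which pass electrons released by fatty acid oxidation and other pathways to oxygen and make ATP, while the other subunits and every enzyme that makes and translates these RNAs come from nuclear genes.

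The base bias of the strands is visible in the gene sequences. Over whole genes, G made up 6.28% to 16.2% of the bases of the 12 heavy-strand mRNAs and 35.6% of those of MT-ND6, and C made up 29.5% to 35.98% and 7.05%. MT-ND5 and MT-ND6 lie end to end on opposite strands, and the first 60 bases of each show the contrast, with G in capitals (2 in MT-ND5 and 21 in MT-ND6). The first line is chrM:12337-12396 on the plus strand and the second is chrM:14614-14673 on the minus strand. All sequences here are from GENCODE release 29 transcripts on GRCh38, whose positions and strands matched those of 37 of the 37 members.
MT-ND5: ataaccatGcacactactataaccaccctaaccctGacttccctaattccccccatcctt
MT-ND6: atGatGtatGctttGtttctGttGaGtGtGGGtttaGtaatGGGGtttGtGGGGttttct

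Several mitochondrial stop codons are completed only by the added A tail. Whether the ends of the mRNA genes bear on their reads in a library made from polyadenylated RNA was not tested. The last 24 bases of 5 mRNA genes are shown with the final codon, or what is left of it, in capitals. As annotated, the MT-ND4L and MT-ATP6 genes end in a full stop codon. The last base of MT-ATP6 is also the first of MT-CO3, and whether the MT-ATP6 RNA keeps it was not tested. MT-ND4 ends in a lone T, MT-CO1 in AGA and MT-ND6 in AGG, and these 2 triplets end translation in human mitochondria. The lines are chrM:10743-10766, chrM:9184-9207, chrM:12114-12137 and chrM:7422-7445 on the plus strand and chrM:14149-14172 on the minus strand.
MT-ND4L: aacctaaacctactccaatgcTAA
MT-ATP6: ctctacctgcacgacaacacaTAA
MT-ND4: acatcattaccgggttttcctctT
MT-CO1: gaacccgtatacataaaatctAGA
MT-ND6: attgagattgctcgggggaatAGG
Of the 13 mRNA genes, MT-ND2, MT-CO3, MT-ND3, MT-ND4 and MT-CYB ended 1 base into a codon and MT-ND1 ended 2 bases into one.

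Some neighbours share bases, and their values are uncertain to that extent, because no source used here states how the counting treated shared bases. MT-ATP8 and MT-ATP6 overlap by 46 bases and MT-ND4L and MT-ND4 by 7 bases. Each protein-coding gene row is counted here as 1 mRNA, although overlapping genes need not lie on separate RNAs. The lines below (chrM:8507-8592 and chrM:10740-10786, plus strand) show the overlaps in capitals.
MT-ATP8 and MT-ATP6: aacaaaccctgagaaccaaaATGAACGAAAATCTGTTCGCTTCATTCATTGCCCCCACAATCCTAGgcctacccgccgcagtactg
MT-ND4L and MT-ND4: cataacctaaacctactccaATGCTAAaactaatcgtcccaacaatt
MT-ATP6 and MT-CO3 share 1 base, MT-TC and MT-TY share 1 base, and MT-TI and MT-TQ, which lie on opposite strands, share 3 bases.

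Expression was read as FPKM, which counts fragments relative to gene length and to the assigned reads of the library. These levels compare between genes only as far as the mRNA kit used for the libraries took up their RNAs alike. Each library held between 6.33 and 15.9 M reads, of which 0.825 to 1.90 M fell on mitochondrial genes. Group levels are given as mean FPKM ± SD (n = 3). Log2 fold changes are fatty acid minus control ± SE from limma on log2(FPKM + 0.5), which understates changes of low genes. A gene passed the test when its p, adjusted by the Benjamini-Hochberg method over the 14661 genes tested, was under 0.05. Of all genes tested, 12.9% passed in either direction, 8.22% higher and 4.68% lower, and the median log2 fold change was 0.04. The balance depends on the scale: 4.84% were higher and 5.7% lower when scaled to nuclear reads, 5.31% and 5.58% with median-of-ratios scaling, 5.17% and 5.27% with quantile normalization, and 17.8% and 2.78% after rescaling to TPM. The 3 replicates of neither group agreed within sampling noise.

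The 12 heavy-strand mRNAs all had lower means with fatty acid, by 16.7% to 35.1% in FPKM, and 4 of the 12 passed the test. These 4 were MT-ND4L, MT-ND5, MT-ND4 and MT-ATP6, against a background of 4.68% of genes passing as lower. MT-ND4L and MT-ND4 overlap, so these 4 rows need not be 4 separate RNAs. The 12 mRNAs are also copied as parts of a long RNA and moved largely together from library to library. Counts among them are therefore not counts of separate results, unlike the shares of all genes beside them. The 12 log2 fold changes ran from -0.62 to -0.24, with a median of -0.48. For 11 of the 12 the unadjusted p was under 0.05 and the adjusted p under 0.1, MT-ATP8 being the other. The groups did not overlap for 9 of the 12, each lower with fatty acid, where 13.3% of all genes tested had such groups in that direction, 23.7% in the other and 37.1% in either. In these bulk libraries, fewer cells of a type rich in mitochondrial RNA and less of that RNA per cell cannot be told apart. The number of heavy-strand mRNAs passing as lower changed with the libraries used. It was 10 without fatty acid replicate 3, where 2.78% of all genes passed as lower. Without fatty acid replicate 1 it was 0 (10 at an unadjusted limma p under 0.05), where 1.58% of all genes did. Without fatty acid replicate 2 it was 1, where 1.68% did. Without control replicate 2 or 3 it was 1, where 4.62% and 2.82% did. With no expression filter 0 passed (0 also at an unadjusted limma p under 0.05), where 1.19% of all genes passed as lower. With the FPKM forced to 1 distribution by quantile normalization the median was -0.08, 0 passed (4 at an unadjusted limma p under 0.05), and MT-ATP8 and MT-CO3 turned positive (0.19 and 0.07). The 12 genes ranked between 1 and 17 in FPKM in every library. This normalization equalizes the values at each rank, so it cannot show a fall that these genes share.

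**Figure D1:**
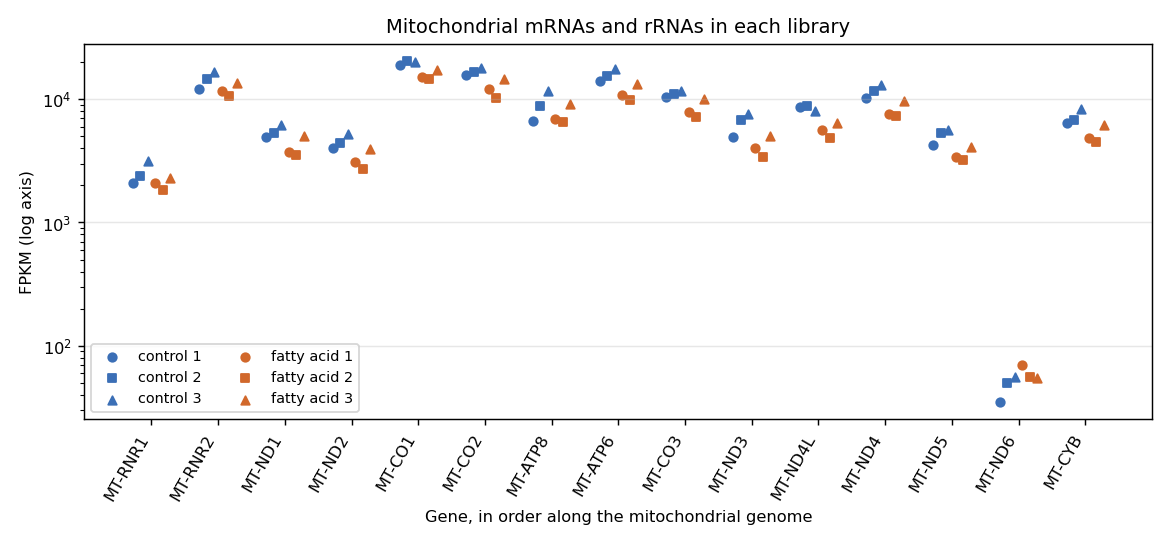
FPKM on a log axis of the 13 mitochondrial mRNAs and 2 rRNAs, in genome order, with 1 point per library (blue control, orange fatty acid; circle, square and triangle for replicates 1, 2 and 3). MT-CO1 is the highest in every library, MT-ND6 lies far below the rest, and fatty acid replicate 3 is the highest fatty acid library for every gene but MT-ND6.

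Complex I, the NADH dehydrogenase that takes up electrons at the start of the chain, has 7 mitochondrial subunits, 6 of them heavy-strand genes, and 3 of these fell. MT-ND4L (chrM:10470-10766) encodes the smallest of them. Its FPKM were 8589, 8791 and 8092 in control replicates 1, 2 and 3 and 5633, 4861 and 6357 in fatty acid replicates 1, 2 and 3. Every fatty acid library lay below every control library, and the gene fell by 0.60 ± 0.10 on the log2 scale (limma adjusted p = 0.0130). Without fatty acid replicate 1 MT-ND4L did not pass (limma adjusted p = 0.0662), and it passed with each other library left out.

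MT-ND4 (chrM:10760-12137), whose reading frame starts inside MT-ND4L, had FPKM of 10228, 11602 and 13061 in the controls and 7609, 7302 and 9707 with fatty acid. MT-ND5 (chrM:12337-14148), a proton-pumping subunit like MT-ND4, had 4252, 5277 and 5594 against 3428, 3216 and 4116 FPKM. In both genes control replicate 1 was the lowest control and fatty acid replicate 3 the highest fatty acid library, and the groups did not overlap. MT-ND4 fell by 0.51 ± 0.13 on the log2 scale (limma adjusted p = 0.0485) and MT-ND5 by 0.49 ± 0.13 (limma adjusted p = 0.0482). Both adjusted p lie close to the threshold, and each gene passed in 8 of 18 alternative analyses, where MT-ND4L passed in 15. With a library left out, MT-ND4 and MT-ND5 passed only without control replicate 1 or fatty acid replicate 3.

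The other 3 heavy-strand subunits of complex I, which help to form its membrane arm, did not pass. MT-ND3 (chrM:10059-10404) had 4943, 6734 and 7528 FPKM in the controls and 4009, 3399 and 5048 with fatty acid. Control replicate 1 lay below fatty acid replicate 3, so the groups overlapped, and the log2 fold change of -0.62 ± 0.19 had a limma adjusted p of 0.0694. MT-ND2 (chrM:4470-5511) had means of 4550 ± 640 and 3257 ± 639 FPKM without overlap (-0.49 ± 0.15, limma adjusted p = 0.0763). MT-ND1 (chrM:3307-4262) had means of 5491 ± 659 and 4091 ± 827 FPKM, with fatty acid replicate 3 above control replicate 1 (-0.44 ± 0.15, limma adjusted p = 0.0952).

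MT-CYB (chrM:14747-15887) encodes cytochrome b, the only mitochondrial subunit of complex III, which passes electrons on to cytochrome c. It had 6414, 6809 and 8331 FPKM in the controls and 4886, 4530 and 6218 with fatty acid. The groups did not overlap, though control replicate 1 and fatty acid replicate 3 lay close together, and the log2 fold change was -0.47 ± 0.14 (limma adjusted p = 0.0714).

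The core of complex IV, cytochrome c oxidase, is formed by 3 mitochondrial subunits. MT-CO1 (chrM:5904-7445), which holds the oxygen-reducing site, was first in FPKM among all genes in all 6 libraries, with 18770, 20374 and 19976 FPKM in the controls and 15041, 14490 and 17253 with fatty acid. All 3 fatty acid libraries lay below the controls, and the log2 fold change of -0.34 ± 0.09 had a limma adjusted p of 0.0515 (0.0457 when scaled to nuclear reads). MT-CO2 (chrM:7586-8269), which accepts electrons from cytochrome c, had means of 16784 ± 992 and 12311 ± 2108 FPKM (-0.46 ± 0.13, limma adjusted p = 0.0562). MT-CO3 (chrM:9207-9990) had 11075 ± 660 and 8335 ± 1428 FPKM (-0.42 ± 0.12, limma adjusted p = 0.0647). None of the 3 genes passed on the deposited scale, and none had overlapping groups.

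Complex V, the ATP synthase, has 2 mitochondrial subunits. MT-ATP6 (chrM:8527-9207), part of its proton channel, had 14105, 15512 and 17485 FPKM in the controls and 10748, 9828 and 13151 with fatty acid. Each fatty acid library was below each control library, and the gene fell by 0.49 ± 0.13 on the log2 scale (limma adjusted p = 0.0487). MT-ATP6 passed in 7 of 18 alternative analyses, and with a library left out only without fatty acid replicate 3 (limma adjusted p = 0.0339). MT-ATP8 (chrM:8366-8572), a short subunit, had 6710, 8733 and 11699 FPKM in the controls and 6929, 6500 and 9174 with fatty acid. Fatty acid replicates 1 and 3 lay inside the control range and replicate 2 just below it. The log2 fold change of -0.24 ± 0.21 had a limma adjusted p of 0.471. The ratio of MT-ATP8 to MT-ATP6 in FPKM was 0.476, 0.563 and 0.669 in the controls and 0.645, 0.661 and 0.698 with fatty acid, lowest in control replicate 1 and overlapping between groups. The ratio of MT-ND4L to MT-ND4, at 0.840, 0.758 and 0.620 in the controls and 0.740, 0.666 and 0.655 with fatty acid, was instead highest in control replicate 1, and the groups overlapped.

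The complexes were compared through the geometric mean FPKM of their mRNAs. The log2 ratio of complex I (6 heavy-strand mRNAs) to complex IV (3 mRNAs) was -1.34, -1.23 and -1.15 in the controls and -1.38, -1.38 and -1.32 with fatty acid. The groups overlapped, with control replicate 1 between the fatty acid libraries, and the difference of -0.12 had a two-sided exact permutation p of 0.2. In all, 6 such values were tested, each with 3 against 3 libraries, where the smallest p is 0.1, so that none could pass 0.05 before or after adjustment.

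**Figure D2:**
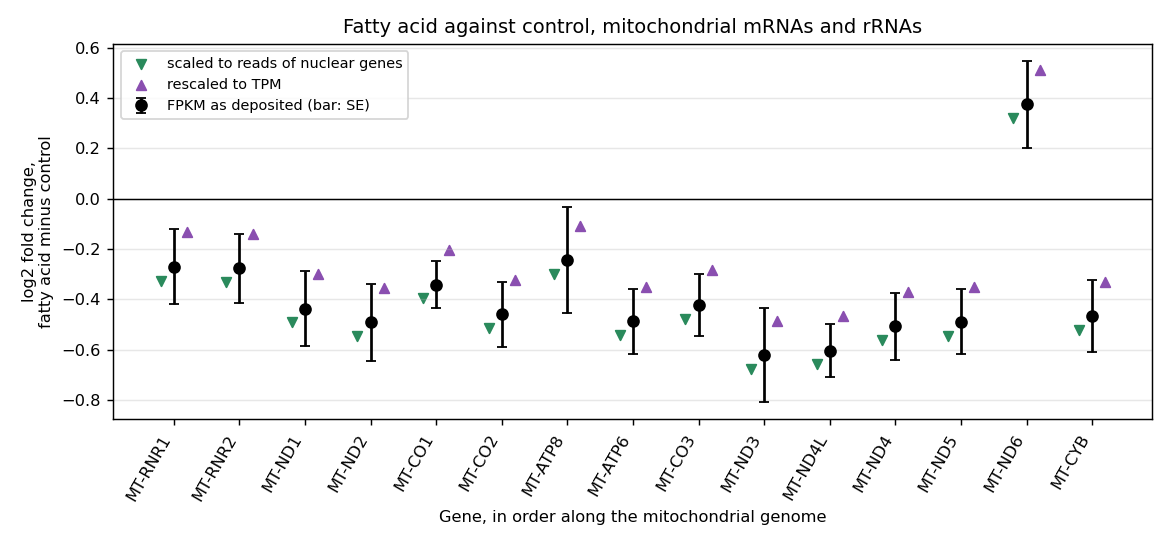
Log2 fold change (fatty acid minus control) of the 13 mRNAs and 2 rRNAs in genome order. Black points are the deposited FPKM with bars of 1 SE, green triangles the values scaled to nuclear reads and purple triangles those rescaled to TPM. All lie below 0 except those of MT-ND6, at 0.37, 0.32 and 0.51.

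Scaling by 1 factor per library moved the mRNAs and rRNAs together, but not every tRNA of few reads. Scaled to the reads of nuclear genes, which shifts the median of all genes from 0.04 to -0.00, the 12 heavy-strand mRNAs had a median log2 fold change of -0.53 and 2 passed as lower, against 5.7% of all genes tested. Those 2 were MT-ND4L (limma adjusted p = 0.0127) and MT-CO1 (0.0457), while MT-ND4, MT-ND5 and MT-ATP6 did not pass there (0.0519, 0.0519 and 0.0514). The same 2 passed with median-of-ratios scaling. Rescaled to TPM, which moves the median of all genes to 0.18, their median was -0.34 and 4 passed as lower, against 2.78%. In both scalings all 12 stayed negative. In the limma voom fit on reads recovered from the FPKM 11 of the 12 passed as lower, where 7.86% of all genes tested did. With all libraries thinned to the reads of the shallowest, 1 of the 12 passed, MT-ND4L.

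MT-ND6 (chrM:14149-14673, minus strand), a complex I subunit and the only light-strand mRNA, did not share the direction of the other 12. Its FPKM were 34.8, 49.6 and 56.1 in the controls and 69.5, 55.4 and 55.3 with fatty acid. Control replicate 3 lay within the fatty acid range, and the log2 fold change of 0.37 ± 0.17 did not pass (limma adjusted p = 0.190). It was positive under all 18 alternatives, between 0.18 and 0.52, and passed under none. Between 164 and 463 reads per library lay behind these values, 677 in the controls and 1186 with fatty acid, a depth-adjusted ratio of 1.23 with an exact 95% interval of 1.12 to 1.35 that covers counting error only. By FPKM the gene ranked between 465 and 994 among all genes.

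Relative to the heavy-strand mRNAs of the same library, MT-ND6 separated the groups. It stood at 0.436%, 0.549% and 0.559% of their geometric mean FPKM in the controls and at 1.11%, 0.974% and 0.713% with fatty acid. The groups did not overlap, and fatty acid replicate 3 was the library nearest the controls. The mean log2 ratio was -7.61 ± 0.20 in the controls and -6.77 ± 0.33 with fatty acid, a 1.79-fold difference with a two-sided exact permutation p of 0.1, the smallest that 3 against 3 allows. This ratio does not depend on the depth or on the scale of the nuclear genes, since both terms come from 1 library. It does depend on how well the mRNA kit took up each RNA, which can differ with the A tail and was not tested. The percents are therefore not ratios of RNA molecules in the cell.

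All light-strand genes together, MT-ND6 and the 8 minus-strand tRNAs, took 0.0175%, 0.0212% and 0.0214% of the mitochondrial reads in the controls and 0.0411%, 0.0359% and 0.0282% with fatty acid. The groups did not overlap (two-sided exact permutation p = 0.1). The Wilson 95% interval of the highest control, 0.0193% to 0.0236%, lay below that of the lowest fatty acid library, 0.0259% to 0.0307%. These intervals cover counting error only, and reads without molecular identifiers are not independent molecules. No source used here states whether the counting used the strand, and the share of these reads that came from the opposite strand was not tested.

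The 2 rRNAs form the RNA core of the mitochondrial ribosome and had log2 fold changes nearer to 0 than 11 of the 12 heavy-strand mRNAs. MT-RNR2 (chrM:1671-3229), the large subunit rRNA, had 12157, 14626 and 16620 FPKM in the controls and 11539, 10673 and 13508 with fatty acid. MT-RNR1 (chrM:648-1601), the small subunit rRNA, had 2097, 2382 and 3123 against 2093, 1849 and 2295 FPKM. Control replicate 1 fell within the fatty acid range for both genes. Their log2 fold changes of -0.28 ± 0.14 and -0.27 ± 0.15 did not pass (limma adjusted p = 0.215 and 0.260). In the limma voom fit MT-RNR2 passed (adjusted p = 0.0392), and under quantile normalization its fold change turned positive (0.13). That normalization equalizes the values at the highest ranks and cannot show a fall shared by the genes there. MT-RNR2 exceeded MT-RNR1 in FPKM 5.32 to 6.14 times over the 6 libraries. This ratio also depends on how well the mRNA kit took up each rRNA, and is not a ratio of molecules in the cell.

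As a share of mitochondrial reads the rRNAs made up 17.1%, 18.3% and 19.3% in the controls and 20.3%, 20.1% and 19.5% with fatty acid. The fatty acid libraries all lay above the controls, with means of 18.3 ± 1.09% and 19.97 ± 0.394% (two-sided exact permutation p = 0.1). Control replicate 3 and fatty acid replicate 3 were the closest pair. The share also depends on how well the mRNA kit took up the rRNAs, which was not tested.

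**Figure D3:**
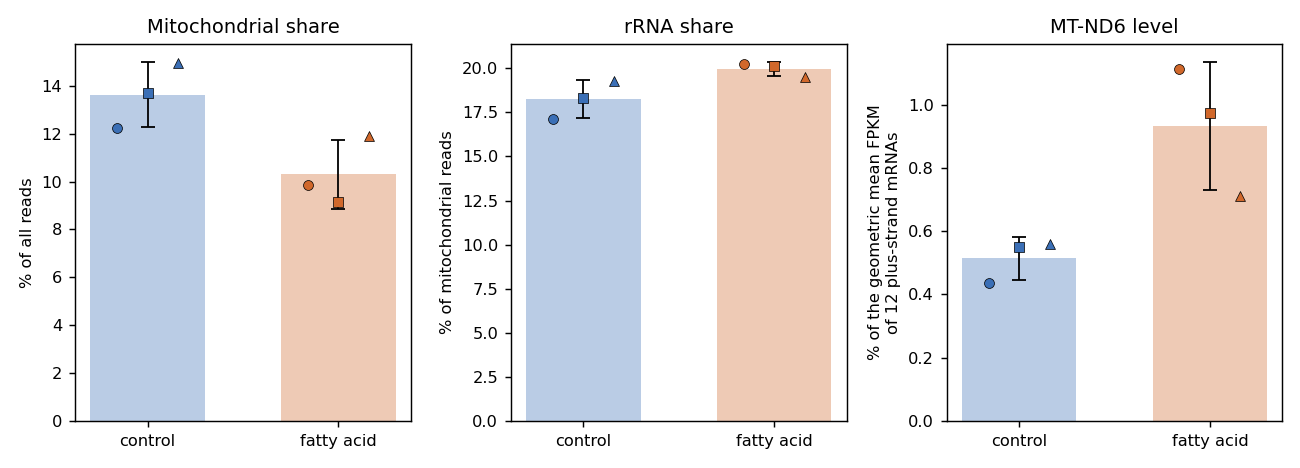
Share of all reads on mitochondrial genes, share of mitochondrial reads on the 2 rRNAs, and MT-ND6 as a percent of the geometric mean FPKM of the 12 heavy-strand mRNAs. Points are libraries (circle, square and triangle for replicates 1, 2 and 3), bars the mean and whiskers the SD of 3. The groups do not overlap in any panel, and triangles, replicate 3, lie nearest to the other group in the fatty acid columns.

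The mitochondrial tRNAs are short and carry little or no A tail in the cell, and they took few reads in these libraries. The 22 genes held 6422 reads over all 6 libraries, 84.4% of them on MT-TL1 and MT-TT, which decode leucine and threonine codons. MT-TV (valine) had 325 reads and MT-TH (histidine) 184, and 18 of the 22 genes had fewer than 100. MT-TK and MT-TR (lysine and arginine) had 0 of 65.8 M reads, which allows up to 0.0456 reads per M. MT-TL1, MT-TK and MT-TN are shown with the anticodon in capitals as the most counted tRNA, 1 of the 2 with no reads, and the 1 that passed the test (chrM:3230-3304 and chrM:8295-8364 on the plus strand, chrM:5657-5729 on the minus strand).
MT-TL1: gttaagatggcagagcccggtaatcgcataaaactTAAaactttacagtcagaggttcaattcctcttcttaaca
MT-TK: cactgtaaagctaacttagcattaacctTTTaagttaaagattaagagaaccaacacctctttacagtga
MT-TN: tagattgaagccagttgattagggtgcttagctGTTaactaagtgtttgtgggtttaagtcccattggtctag

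Of the 22 tRNA genes 18 had a mean of at least 0.5 FPKM and were tested. MT-TL1, which lies directly downstream of MT-RNR2, had 806, 796 and 1002 FPKM in the controls and 626, 700 and 858 with fatty acid. MT-TT, downstream of MT-CYB, had 345, 390 and 355 against 277, 263 and 373 FPKM. Fatty acid replicate 3 lay inside the control range for both, and neither passed (-0.26 ± 0.13 and -0.27 ± 0.13, limma adjusted p = 0.231 and 0.196). MT-TV, between the rRNA genes, had 78.6 ± 8.37 and 64.6 ± 13.5 FPKM (limma adjusted p = 0.211). MT-TH, downstream of MT-ND4, had 56.6, 73.2 and 36.8 FPKM in the controls and 27.7, 37.3 and 30.9 with fatty acid. Fatty acid replicate 2 lay just above control replicate 3, and the log2 fold change of -0.74 ± 0.23 had a limma adjusted p of 0.0759. MT-TF (phenylalanine), the first gene of the heavy-strand transcript, had 18.2 ± 7.59 and 16.9 ± 2.78 FPKM (limma adjusted p = 0.951). MT-TA, MT-TC, MT-TD, MT-TE, MT-TG, MT-TL2 and MT-TY held between 8 and 33 reads each over all libraries, and none passed (limma adjusted p from 0.340 to 0.886). The serine tRNAs MT-TS1 and MT-TS2 had 2 reads each, all with fatty acid, and were not tested.

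Among tested tRNAs, 8 of the 11 on the plus strand had a negative log2 fold change, and 6 of the 7 on the minus strand a positive one. Many of these signs are unsure. MT-TI and MT-TW, counted as negative, had higher mean FPKM with fatty acid (10.3 against 7.07 and 12.7 against 11.96). The signs of MT-TF, MT-TD, MT-TY and MT-TE turned with a library left out. Whether the tRNAs of the 2 strands differ was not tested. Of the tested tRNAs, the asparagine tRNA MT-TN was the only 1 to pass, higher with fatty acid (2.20 ± 0.50, limma adjusted p = 0.0317). It rested on 0, 0 and 1 reads in the controls and 3, 2 and 3 with fatty acid, a depth-adjusted ratio of 5.61 with an exact 95% interval of 0.752 to 249, and did not pass on recovered reads with limma voom (adjusted p = 0.202). With a library left out MT-TN passed only without control replicate 3 (limma adjusted p = 0.00917). MT-TP (proline), the minus-strand tRNA with the most reads, had 9.84, 13.9 and 12.4 FPKM in the controls and 31.6, 12.3 and 17.5 with fatty acid. Fatty acid replicate 2 lay among the controls, and the gene did not pass (0.65 ± 0.30, limma adjusted p = 0.197). Summed over the 8 minus-strand tRNAs, reads per M were 3.12, 3.00 and 2.54 in the controls and 4.06, 3.69 and 4.52 with fatty acid. Every fatty acid library lay above the controls, with 77 and 159 reads in the groups and a depth-adjusted ratio of 1.45 (exact 95% interval 1.10 to 1.93). Both this interval and that of MT-TN pool the reads of each group and cover counting error only.

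One library stood apart in a cluster of neighbouring tRNA genes. MT-TI, MT-TQ, MT-TM and MT-TW (isoleucine, glutamine, methionine and tryptophan), which flank MT-ND2, together had 25, 12 and 20 reads in the controls, 6 and 16 in fatty acid replicates 1 and 2, and 117 in fatty acid replicate 3. Per M reads this was 2.79, 1.90 and 1.69 in the controls and 0.717, 1.11 and 7.34 with fatty acid. The SD of these 4 genes in the fatty acid group was therefore large, and none passed with all libraries. Without fatty acid replicate 3, MT-TI and MT-TW passed as lower (-3.01 and -3.35, limma adjusted p = 0.0299 and 0.0456), on few reads. In that fit 2.78% of all genes passed as lower. All tRNAs together took 0.0812%, 0.0737% and 0.0755% of mitochondrial reads in the controls and 0.0788%, 0.0889% and 0.0916% with fatty acid. Control replicate 1 lay above fatty acid replicate 1, and the two-sided exact permutation p was 0.2.

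**Figure D4:**
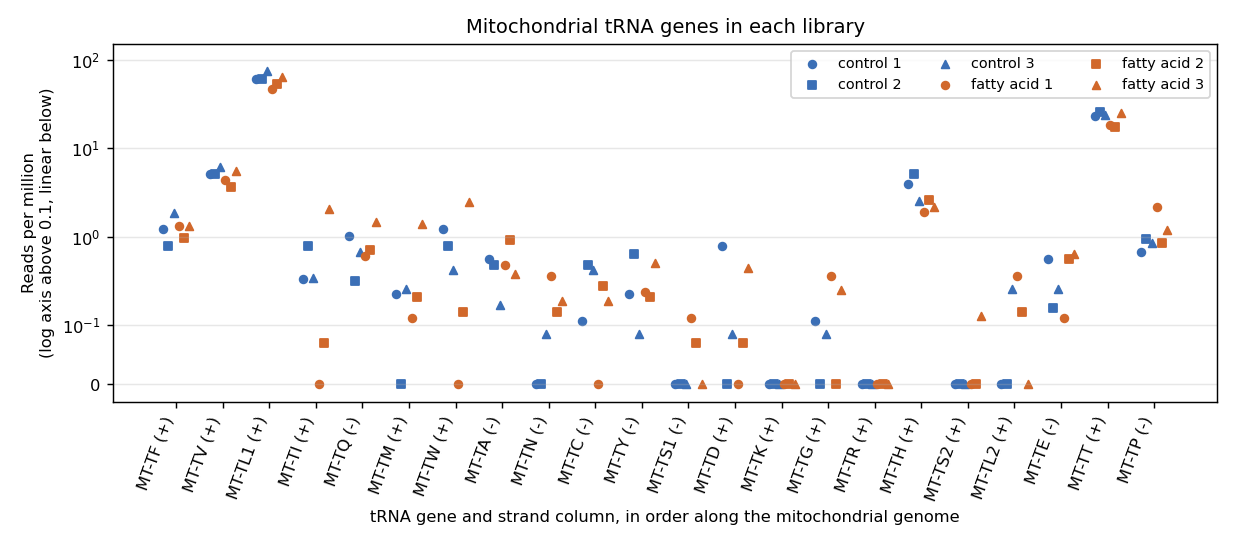
Reads per M of the 22 tRNA genes in each library, in genome order, with the strand in brackets (log axis above 0.1, linear below). MT-TL1 and MT-TT stand above the rest, MT-TK and MT-TR lie at 0 in every library, and fatty acid replicate 3 is the highest library for MT-TI, MT-TQ, MT-TM and MT-TW.

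Library by library, mitochondrial genes took 12.2%, 13.7% and 15.0% of all reads in the controls and 9.86%, 9.15% and 11.9% with fatty acid. Control replicate 1 and fatty acid replicate 3 were close, yet the groups did not overlap (two-sided exact permutation p = 0.1). As a share of summed FPKM, which weights short genes up, the values were 35.4%, 38.7% and 41.3% in the controls and 30.8%, 28.7% and 35.3% with fatty acid. The median deviation of the 12 heavy-strand mRNAs from their 6-library mean on the log2 scale was 0.08, 0.22 and 0.40 in control replicates 1, 2 and 3 and -0.30, -0.42 and 0.01 in fatty acid replicates 1, 2 and 3. In control replicates 2 and 3 all 12 mRNAs lay above that mean, and in fatty acid replicates 1 and 2 all 12 lay below it. Control replicate 1, with 10 above, and fatty acid replicate 3, with 7 above, were the libraries in between. The SE of the log2 fold change was 0.09 to 0.21 for these mRNAs, with a median of 0.13, against a median of 0.10 for all genes tested, although the least counted of the 12 held 114119 reads.

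Nuclear genomes carry copies of mitochondrial DNA, and reads of such copies and of the genes themselves can be confused. The table listed 386 such copies, of which 45 had reads and 8 were tested. Together they held 1.31% to 1.57% as many reads as the mitochondrial genes. The largest, MTATP6P1 (chr1:633696-634376), matches MT-ATP6 at 671 of 681 bases. The first 60 bases of both are shown with the mismatch in capitals, G19A counted from the first base of MT-ATP6 (chrM:8527-8586 and chr1:633696-633755, plus strand), to show how little sets their reads apart.
MT-ATP6: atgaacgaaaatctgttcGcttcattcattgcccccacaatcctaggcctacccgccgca
MTATP6P1: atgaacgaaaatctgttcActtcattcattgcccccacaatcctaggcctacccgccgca
Of all 50-base windows along MT-ATP6, 46.7% were identical in the copy.

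MTATP6P1 had 2370, 2201 and 2539 FPKM in the controls and 1498, 1282 and 1843 with fatty acid. It fell by 0.63 ± 0.13 on the log2 scale (limma adjusted p = 0.0220). As in MT-ATP6, replicate 3 was the highest library of each group and the groups did not overlap. Its reads were 11.5% to 14.4% of those of MT-ATP6 and the copy together. MTCO2P2 (chr18:47853233-47853457) and MTCO2P12 (chr1:632757-633438) also fell (limma adjusted p = 0.0115 and 0.0297), on 33 and 47 reads in all, but not by limma voom, where MTATP6P1 alone of the 3 passed. These 3 of 8 tested copies compare with 4.68% of all genes tested passing as lower. Without control replicate 3, fatty acid replicate 1 or fatty acid replicate 2, 1 copy passed in place of 3. MTND2P28 (chr1:629640-630683), 98.2% identical to MT-ND2, had 373 ± 103 and 318 ± 54.3 FPKM (limma adjusted p = 0.569), and MTCO1P12 (chr1:631074-632616), 98.6% identical to MT-CO1, had 24.7 ± 3.57 and 23.4 ± 1.16 FPKM (limma adjusted p = 0.681). MTRNR2L12 (chr3:96617188-96618236), a copy of part of MT-RNR2, had 1.16 ± 0.180 and 0.942 ± 0.247 FPKM (limma adjusted p = 0.432). How many reads of these rows came from mitochondrial RNA was not tested.

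Nuclear genes of mitochondrial DNA maintenance, gene expression, biogenesis, the respiratory chain, mitochondrial mass and mitophagy were read from lists of 271 genes, of which 267 were tested, 10 rose and 2 fell. That is 4.49% of the genes tested, against 12.9% of all genes, and their median log2 fold change was 0.01. Of the 267, 0 passed without fatty acid replicate 1 or 2 (40 and 48 at an unadjusted limma p under 0.05) and 4 without fatty acid replicate 3. Nuclear subunits of the respiratory chain and ATP synthase numbered 77 tested, with 0 higher, 2 lower and a median of -0.07. At an unadjusted limma p under 0.05 3 were higher and 20 lower, and by limma voom 1 and 8. The 2 that fell were NDUFA11, a complex I subunit, from 5.61 ± 0.485 to 4.09 ± 0.439 FPKM (limma adjusted p = 0.0354), and UQCR10, a complex III subunit, from 97.6 ± 5.87 to 83.4 ± 2.21 FPKM (limma adjusted p = 0.0441). None of the 4 complex II, 11 complex IV and 18 complex V genes passed, the smallest limma adjusted p being those of SDHB (0.435), COX8A (0.0757) and ATP5D (0.0682). Scaled to nuclear reads, 8 of these 77 passed as lower and 0 as higher, and 5 genes of the whole union passed as higher and 10 as lower. On that scale 5.7% of all genes tested passed as lower and 4.84% as higher.

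The list for transcription of mitochondrial DNA had 0 of 9 genes passing and a median of 0.06, with 3 genes at an unadjusted limma p under 0.05 and 1 higher and 1 lower by limma voom. TFAM, which packages mitochondrial DNA and opens its promoters, had 10.96, 12.4 and 11.97 FPKM in the controls and 14.1, 15.9 and 13.5 with fatty acid. All fatty acid libraries lay above the controls, with a log2 fold change of 0.29 ± 0.08 (limma adjusted p = 0.0547). MTERF1, a termination factor, had 2.95 ± 0.174 and 3.72 ± 0.301 FPKM (limma adjusted p = 0.0678). POLRMT, the mitochondrial RNA polymerase itself, had 16.5, 12.3 and 14.3 FPKM in the controls and 10.99, 10.04 and 12.4 with fatty acid. Control replicate 2 lay just below fatty acid replicate 3, and the log2 fold change of -0.35 ± 0.12 did not pass (limma adjusted p = 0.0934). TFAM and POLRMT were the 2 that passed by voom. Among 13 genes for replication and nucleotide supply, RRM2B, a ribonucleotide reductase subunit, rose from 36.8 ± 1.94 to 45.6 ± 1.79 FPKM (limma adjusted p = 0.0181) and SSBP1, the single-stranded DNA-binding protein, from 16.5 ± 0.226 to 19.8 ± 0.601 FPKM (limma adjusted p = 0.0226).

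Of 23 genes for processing, polyadenylation and decay of mitochondrial RNA, LRPPRC passed. LRPPRC binds and stabilizes the heavy-strand mRNAs, and had 19.9, 20.5 and 19.8 FPKM in the controls and 24.2, 25.0 and 22.6 with fatty acid. The groups did not overlap, and it rose by 0.25 ± 0.06 on the log2 scale (limma adjusted p = 0.0321). Scaled to nuclear reads its limma adjusted p was 0.0527 and no gene of this list passed, and with 1 library left out LRPPRC passed in 2 of 6 fits. Its partner SLIRP had 16.9 ± 2.21 and 16.6 ± 1.51 FPKM (limma adjusted p = 0.931), and it and POLRMT were named after their values were seen. None of 14 genes for modification of mitochondrial rRNA and tRNA passed, the smallest limma adjusted p being that of TRIT1 (0.0705), with 1 at an unadjusted p under 0.05 and 0 by voom. None of 8 regulators of mitochondrial biogenesis passed, the smallest being that of the transcription factor gene YY1 (0.0767), with 3 at an unadjusted p under 0.05 and 1 by voom.

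Of 78 mitochondrial ribosomal protein genes tested, 2 rose, MRPL3 (from 32.6 ± 2.65 to 41.8 ± 0.702 FPKM, limma adjusted p = 0.0169) and MRPL32 (from 13.3 ± 0.291 to 15.5 ± 0.455 FPKM, limma adjusted p = 0.0419). Of 28 translation factors and tRNA synthetases 1 rose, the isoleucine enzyme IARS2 (limma adjusted p = 0.0391). Scaled to nuclear reads MRPL3 passed as higher (limma adjusted p = 0.0413) and MRPL41 and MRPL43, named after their values were seen, as lower, while MRPL32 (0.0849) and IARS2 (0.0966) did not pass. With 1 library left out, MRPL3 passed in 3 of 6 fits, MRPL32 in 1 and IARS2 in 0. Among 10 mitochondrial mass markers 1 rose, the matrix chaperone gene HSPD1 (95.9 ± 2.75 against 117 ± 5.48 FPKM, limma adjusted p = 0.0154). Their summed level, to which HSPD1 contributed, was 384 to 402 FPKM in the controls and 425 to 459 FPKM with fatty acid, without overlap. Of all genes tested, 23.7% had groups that did not overlap and were higher with fatty acid. The median log2 fold change of the 10 was 0.13, and 0.07 when scaled to nuclear reads. Of 7 mitophagy genes tested 3 rose: the receptor genes BNIP3L, OPTN and SQSTM1 (limma adjusted p = 0.0146, 0.0355 and 0.0480), where 8.22% of all genes tested were higher. Scaled to nuclear reads BNIP3L alone passed (limma adjusted p = 0.0278, with 0.0712 for OPTN and 0.0711 for SQSTM1), and 0 to 2 of the 7 passed with 1 library left out.

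**Figure D5:**
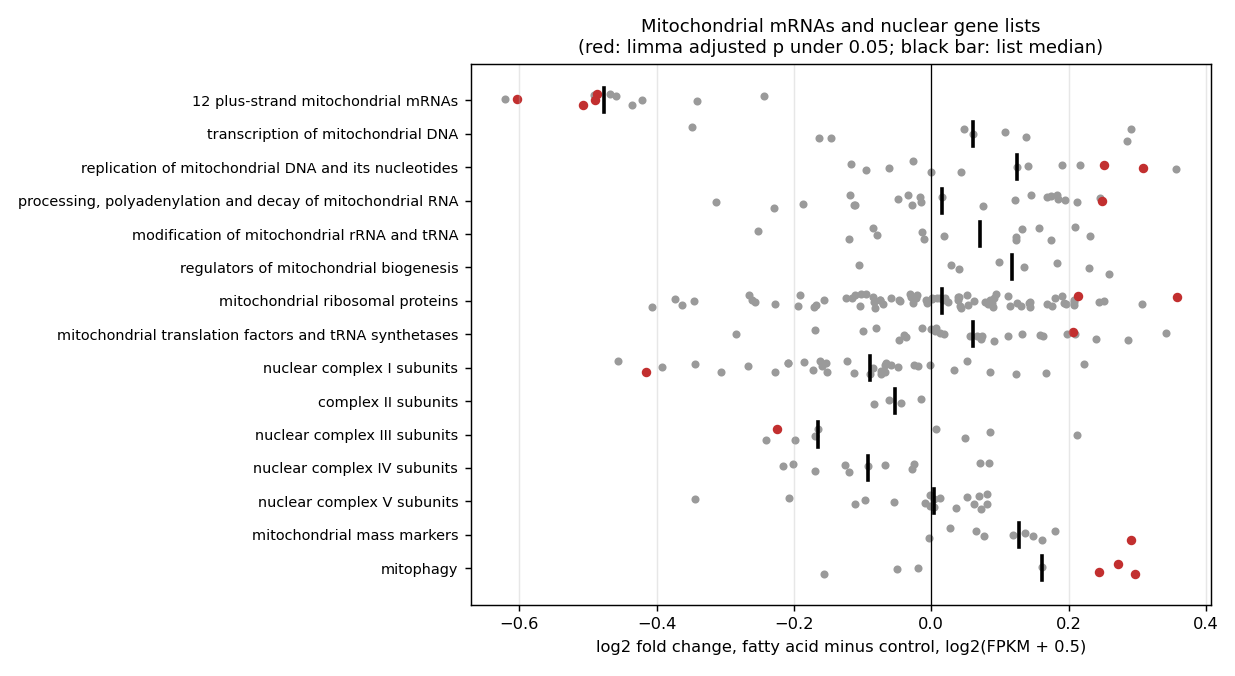
Log2 fold change (fatty acid minus control) of each tested gene of the 12 heavy-strand mRNAs and 14 nuclear lists, red where the limma adjusted p was under 0.05, with a black bar at each list's median. The heavy-strand mRNAs have a median of -0.48, and the medians of the nuclear lists lie between -0.16 and 0.16.

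Cell type markers moved between the same groups. Of all genes tested, 4.68% passed as lower and 8.22% as higher. Of 12 hepatocyte markers 9 fell, 2 rose (FGB and SERPINA1) and APOB did not pass. The summed level of the 12 was 16220 to 16890 FPKM in the controls and 12260 to 12770 FPKM with fatty acid. ALB, the albumin gene and a defining hepatocyte marker, stood at 12025 ± 318 and 7127 ± 306 FPKM. ALB made up most of that sum in both groups, and its mean fell by more than the sum did. The sum therefore does not show a fall shared by the other hepatocyte markers. Of 8 biliary markers 5 were tested and 1 fell (CD24), with sums of 443 to 517 and 424 to 440 FPKM and the epithelial marker EPCAM listed at 0 in all libraries. None of 5 tested mesenchymal markers passed (3 at an unadjusted limma p under 0.05, and 3 by limma voom), with sums of 57.8 to 61.8 and 58.7 to 64.4 FPKM. Of 7 immune and endothelial markers 2 were tested and KDR fell, with sums of 49.7 to 54.6 and 38.0 to 39.9 FPKM, while the leukocyte marker PTPRC was at 0 in the controls and at most 0.025 FPKM with fatty acid. The nuclear-retained RNAs MALAT1 and NEAT1 did not pass (0.27 and -0.31, limma adjusted p = 0.483 and 0.120). The part of these shifts in the values of the mitochondrial genes was not tested.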

How the data were processed

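The authors deposited 1 table of FPKM values for 58037 gene rows and 6 libraries, with each gene's type, position, strand and length per the file headers. Libraries were made with a stranded mRNA kit from 100 ng of RNA, per the labels' protocols. STAR 2.5.2, featureCounts, Subread 1.5.1 and the build GRCh38 are named in the submitters' processing notes. No source used here states the strand setting, the read length or the treatment of multiply mapped reads, which bear on antisense neighbours, short tRNA genes and nuclear copies. Since FPKM is relative to the library total, the mitochondrial share affects the values of other genes too.

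Members were the rows on the mitochondrial chromosome. The members and the gene lists were chosen with earlier results of these data known. All mRNA and rRNA genes were named, tRNA genes that passed the minimum or were the highest or lowest of their strand, up to 4 passing genes of a list (or the 2 smallest p, of which some are left out), and the 6 highest nuclear copies.

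Whole reads were recovered from the steps of FPKM times length (100% whole, tolerance 0.02 reads beyond rounding), which gave a depth in M reads of 8.96 (control replicate 1), 6.33 (control replicate 2), 11.82 (control replicate 3), 8.36 (fatty acid replicate 1), 14.36 (fatty acid replicate 2) and 15.94 (fatty acid replicate 3). Shares of reads used these; Wilson 95% intervals were at most 0.174 percentage points wide for the rRNA share.

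The test was limma 3.58.1 (R 4.3.3), with a trend of variance on intensity, fitted to log2(FPKM + 0.5) of all 6 libraries without covariates. It took genes whose mean reached 0.5 FPKM, and p-values were adjusted by Benjamini-Hochberg. The script was tested on simulated data. Shares and ratios had two-sided exact permutation tests over 20 splits. The 18 alternatives were other pseudocounts, filters and scalings, no trend, the replicate block, each library left out, limma voom on recovered reads and thinning to 6.33 M reads. Figures were drawn with matplotlib 3.10.9, and other steps used Python 3.11.15, pandas 2.3.3, numpy 2.4.6 and scipy 1.17.1.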

Additional observations from a re-analysis of the deposited data

How the results depend on the processing

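All genes passing the limma test numbered 1891. They numbered 977 with no filter, 3023 after rescaling to TPM, 1101 without the intensity trend, 2999 with limma voom on recovered reads, 1256 after thinning, and 462 to 1612 with 1 library left out. Mitochondrial genes passing numbered 5 of 33. They numbered 0 with no filter, 10 with a minimum of 2 FPKM, 3 with median-of-ratios scaling, 1 with quantile normalization, 3 with scaling to nuclear reads, 1 without the trend, 12 with voom, 3 after thinning, and 0 to 13 with 1 library left out. At the 0 counts, unadjusted p under 0.05 was met by 2 members with no filter and 12 without fatty acid replicate 1. Genes of the nuclear lists passing numbered 12. They numbered 5 with no filter, 25 with a minimum of 2 FPKM, 41 after rescaling to TPM, 2 without the trend, 31 with voom, and 0 to 11 with 1 library left out (0 without fatty acid replicate 1 or 2).

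The replicate number as a block gave 14 mitochondrial genes and 6 genes of the nuclear lists. Same-numbered libraries deviated together with correlations of 0.0122, 0.0836 and 0.0224, none over 0.1, and not every library correlated best with its own number, so the numbers were not taken to pair the samples.

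With summed FPKM in place of reads, fatty acid minus control was -6.89 percentage points for the mitochondrial share (-3.33 by reads), 0.0516 for the light-strand share (0.0150) and 0.145 for the tRNA share (0.00965). The directions of all 6 shares and ratios held with each library left out.

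Directions reversed for MT-RNR2 (0.13), MT-ATP8 (0.19) and MT-CO3 (0.068) under quantile normalization, which cannot show a fall shared by genes of the highest ranks. They also reversed for tRNAs of few reads. MT-TF was at 0.10 after rescaling to TPM, 0.29 after thinning and -0.34 to 0.27 with a library left out. MT-TY was at -0.60 after thinning and -0.33 to 0.92 with a library left out, MT-TL2 at -0.062 with voom, MT-TD at -1.39 to 0.90 and MT-TE at -0.085 to 0.97 with a library left out. The causes were not tested. Depth limits the 18 tRNAs of under 100 reads.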
